A study of Mus musculus with 7 samples.

Results

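The regions described here are 1127 Pygo2 ChIP-seq peaks that lay between protein-coding genes, near a gene and without a β-catenin overlap. They were taken from the 7150 peaks of the Pygo2 list by 3 conditions. The peak shared no base with any of the 1079 peaks of the β-catenin list, its centre lay outside every protein-coding gene, and the nearest start or end of such a gene was more than 1 kb and at most 50 kb away. They made up 15.8% of the Pygo2 list (95% Wilson interval 14.9 to 16.6%), out of 8229 peaks in both lists. The members were chosen by the peak calls of both libraries. The conditions themselves (position relative to genes and the absence of a β-catenin overlap) are descriptions and not findings.

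The tissue was branchial arches of wild-type mouse embryos at 10.5 days post coitum, with no strain, sex or treatment given in the sources used here. Peak lists carry no expression values, so the labelled tissue was not checked against markers. Both libraries analysed, Pygo2 BA2 and β-catenin BA2, were chromatin immunoprecipitations from pooled arches (about 200 per preparation) and differed in the antibody. Both were crosslinked with 1.5 mM of the protein crosslinker EGS (40 min) and with 1% formaldehyde (20 min). The labels do not say whether BA1 and BA2 are different arches or repeat preparations. An IgG BA1 library served as the authors' control for both BA2 lists, per the file headers. Each list came from 1 library, so no difference below has a replicate error or a test, and the printed intervals cover counting error only.

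Branchial arches are transient outgrowths beside the embryonic pharynx that form much of the face, jaw, middle ear and neck and contribute to the great vessels of the heart. In Wnt signalling, β-catenin enters the nucleus and binds TCF/LEF factors on DNA. Pygo2 is a PHD-finger protein that reads methylated histone H3 tails and is joined to β-catenin by Bcl9 proteins. A peak marks a place where immunoprecipitated fragments pile up, and it names no target gene, so a gene is given below by distance alone.

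The Pygo2 library held 15009636 tags, of which 111009 (0.740%) lay in peaks, a mean of 15.5 tags a peak. The β-catenin library held 13672937 tags, of which 15795 lay in its peaks (0.12% by the header), and 2837 of its 4036 putative peaks were removed against IgG. An absent β-catenin overlap is read against that lower yield. The deposited score was the same for every peak, so the place in the list was the only order available. The list holds 80 runs sorted by chromosome name, the largest of 554 peaks, and order inside a run carries no information on strength. Positions below are given from 1, or as a percentage of the list with 0% at its head. What the authors ordered the list by is not stated in the files.

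A minority of the peaks lay at starts of long noncoding RNA (lncRNA) genes or near small RNA genes. Sequence could be read where a peak crossed a RefSeq promoter window (250 bases before to 50 after a start). The 4 stretches below, from build GRCm38.p6 (mm10), show what lay under such peaks. They were chosen after their values were seen, to show lncRNA starts under peaks of the class, the first pair at genes described below: 2900052L18Rik (chr11:120231568-120231682, minus strand) is the lncRNA start upstream of Bahcc1, Gm34157 (chr9:61370537-61370703, minus strand, the whole peak) lies before Tle3, Chaserr (chr7:73558480-73558645, minus strand) before Chd2, and 1600020E01Rik (chr6:86527209-86527375, plus strand, the whole peak) before Pcbp1. Capitals mark matches on either strand to GGGCGG (Sp/KLF), CCAAT (NF-Y) or CACGTG (E-box). A match is a run of letters and not a shown binding site.
2900052L18Rik: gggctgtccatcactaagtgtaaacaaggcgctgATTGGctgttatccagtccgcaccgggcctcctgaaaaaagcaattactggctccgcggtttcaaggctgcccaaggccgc
Gm34157: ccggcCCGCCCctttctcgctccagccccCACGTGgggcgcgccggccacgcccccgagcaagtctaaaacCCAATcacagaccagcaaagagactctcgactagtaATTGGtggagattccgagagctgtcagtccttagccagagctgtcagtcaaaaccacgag
Chaserr: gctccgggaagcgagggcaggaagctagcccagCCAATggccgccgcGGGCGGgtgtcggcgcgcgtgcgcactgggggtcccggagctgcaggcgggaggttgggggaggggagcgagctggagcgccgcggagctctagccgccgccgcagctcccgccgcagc
1600020E01Rik: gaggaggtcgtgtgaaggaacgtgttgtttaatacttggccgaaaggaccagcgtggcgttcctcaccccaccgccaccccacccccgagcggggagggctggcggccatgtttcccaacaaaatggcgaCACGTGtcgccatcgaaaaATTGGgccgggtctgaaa

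Bahcc1, which encodes a chromatin protein with a BAH domain, was the nearest gene of 7 peaks, more than any other protein-coding gene. It lies on chromosome 11 (chr11:120232870-120292297). Upstream peaks were centred 1.271, 16.219 and 25.883 kb before the gene, at list positions 11, 1420 and 6396. Downstream peaks were centred 12.875, 15.531, 18.714 and 24.034 kb past its end, at positions 769, 910, 1421 and 770. The peak 1.271 kb upstream was the first of all 1127 in the list, and its centre lay 18 bp from the start of 2900052L18Rik, whose sequence is printed above. The 4 downstream peaks spanned 11.3 kb and had no tRNA or snRNA gene (transfer and small nuclear RNA) within 1 kb. Pygo2 peaks of other classes at Bahcc1 were centred -0.035, 8.201, 9.701 and 48.647 kb from its start (negative is upstream). β-catenin peaks were centred -15.595, -0.322 and 0.171 kb from the start. The first-listed peak had a β-catenin peak 949 bp away without sharing a base.

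**Figure D1:**
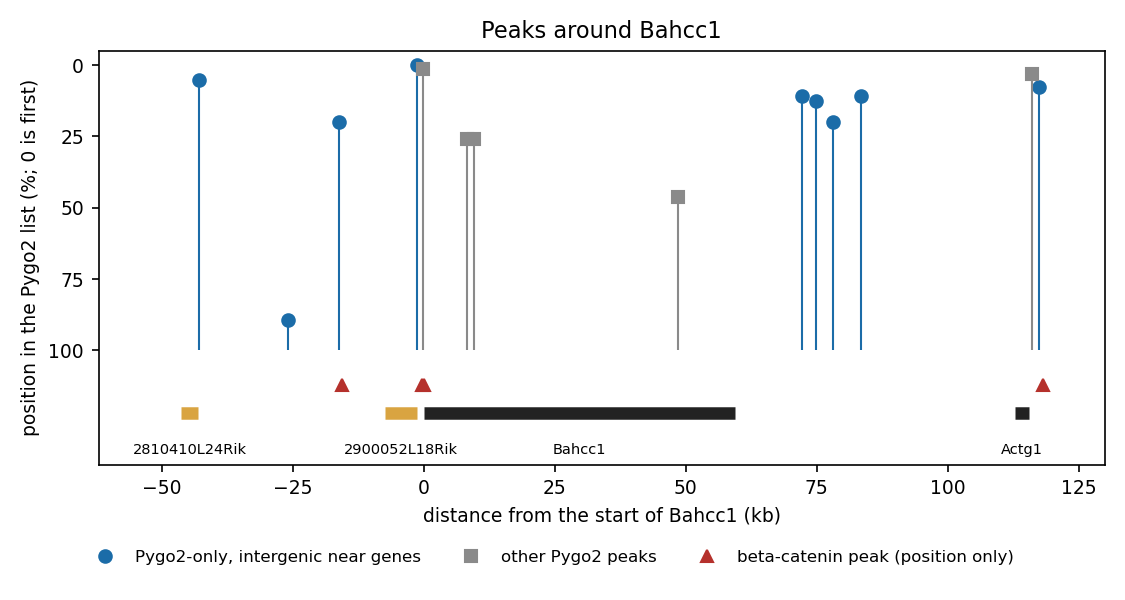
Peaks around Bahcc1 by distance from its start (horizontal axis, kb) and place in the Pygo2 list (vertical axis, %, head of the list on top). Circles are Pygo2-only intergenic peaks near genes, squares other Pygo2 peaks, triangles β-catenin peaks (position only) and bars genes; the peak 1.271 kb upstream stands at the head of the list and 4 peaks lie past the gene's end.

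Prothymosin alpha (Ptma), a small acidic nuclear protein, was nearest to 6 peaks at 1.096 to 38.984 kb, the earliest at list position 31. Abt1, Tex44, Cstad, Sulf2 and Gorab had 4 each, and Zfp825, Socs3 and Hjv had 3 each. Sulf2 edits heparan sulphate outside the cell, Socs3 dampens cytokine signalling, and Hjv is a BMP co-receptor of iron metabolism. All 4 Sulf2 peaks lay within 1 kb of the lncRNA gene Gm30320, and all 4 Tex44 peaks within 1 kb of Gm32700. Every Abt1 peak and the Hjv peaks at list positions 229 and 292 had a tRNA gene within 1 kb. Most Cstad peaks and every Zfp825 peak had an lncRNA gene or pseudogene there. The Ptma, Gorab and Socs3 peaks had no noncoding gene within 1 kb. Repeated peaks were the exception: of 945 nearest genes, 807 had 1 peak and 138 had more. Those 945 genes were 4.32% of the 21887 protein-coding genes.

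Nearest genes among the 20 first-listed peaks were as follows, by list position. Bahcc1 stood at 11, Id3 at 15, Kif2c at 17, Tle3 at 18, Zfp825 at 26, Mid1 at 30 and Ptma at 31 and again at 134. Taf12 followed at 35, Fmc1 at 57, Socs3 at 66, Arl4d at 76 and 106, Igf2bp3 at 115, Wdr81 at 124, Morn3 at 137, Ccr1 at 143, Abt1 at 168 and Igdcc3 at 180. Id3 is an inhibitor of basic helix-loop-helix factors and a BMP target, and its peak lay 3.274 kb upstream. Tle3, a Groucho-family corepressor that binds TCF factors, had its peak 1.706 kb upstream. Several of these peaks were closer to a noncoding gene than to the protein-coding one. The Kif2c peak was centred inside the small nuclear RNA gene Gm25099, the Taf12 peak lay at Rnu11, and both Arl4d peaks lay at Rnu2-10.

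The peaks were most numerous per kb close to genes. Distances to the nearest protein-coding gene ran from 1.006 to 49.926 kb with a median of 9.707 kb and quartiles of 3.773 and 23.119 kb. From 1 to 2 kb there were 141 peaks, or 141 per kb of distance, against 72 per kb at 2 to 5 kb, 42.4 at 5 to 10 kb, 21.5 at 10 to 20 kb and 11.4 at 20 to 50 kb. The sequence available at each distance was not measured, and the limits of 1 and 50 kb are part of the choice. Closer peaks also stood earlier in the list: the median place was 44.1% at 1 to 2 kb, 53.3% at 2 to 5 kb, 59.8% at 5 to 10 kb, 65.3% at 10 to 20 kb and 67.7% at 20 to 50 kb. Just inside the 1 kb limit were peaks at Myl9 (1006 bp), Nsd2 (1006 bp) and Trib1 (1025 bp), and just outside it peaks at Src (983 bp), Rin2 (989 bp) and Id1 (995 bp). At 50 kb the peaks just inside were near Map3k1 (49828 bp), Gm52612 (49854 bp) and Gm38821 (49926 bp), and those just outside near Rad51b (50320 bp), Foxl1 (50393 bp) and Ryk (50425 bp).

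**Figure D2:**
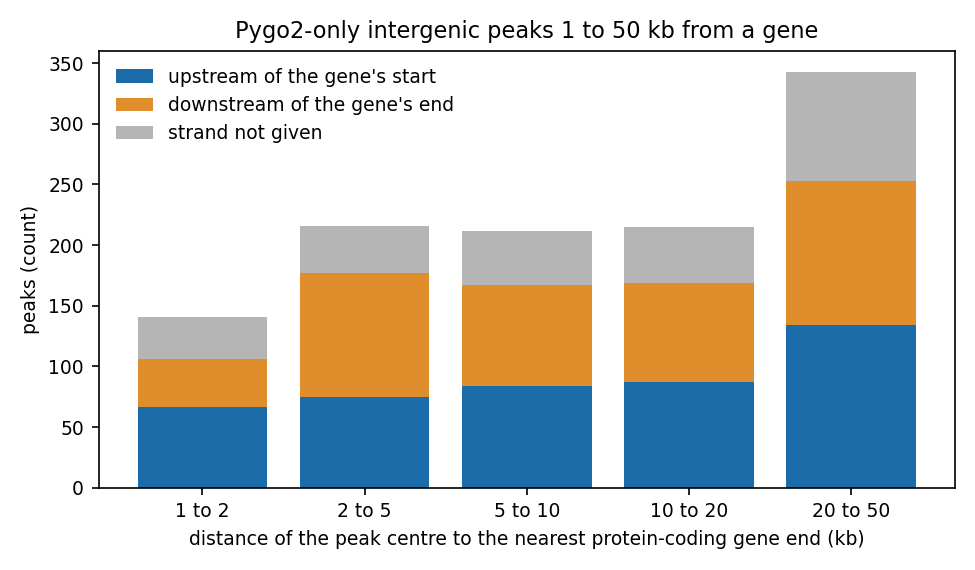
Number of Pygo2-only intergenic peaks by distance from the nearest protein-coding gene end (kb), stacked by side of the gene (upstream of its start, downstream of its end, or no strand given). The 1 to 2 kb bin holds 141 peaks and the 20 to 50 kb bin 343 over a far wider span.

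Pooled over distance, the peaks lay about equally on both sides of genes. Of 872 with a strand for the nearest gene, 447 (51.3%, 47.9 to 54.6%) were upstream of the start and 425 downstream of the end. At 1 to 2 kb, 67 were upstream and 39 downstream, and at 2 to 5 kb 75 were upstream and 102 downstream. Beyond 5 kb the counts were 84 and 83, 87 and 82, and 134 and 119 in the next 3 distance ranges. The nearest gene of the other 255 had no strand in the tables used. The upstream share was 51.5% (17 of 33) for the shared near-gene intergenic peaks and 53.6% for Pygo2-only intergenic peaks beyond 50 kb. Peaks at gene ends or inside genes can lie within the gene, so no upstream share is given for them. The share closest to a gene's start rather than its end was 94.4% for Pygo2-only peaks within 1 kb of a gene end. For those inside genes it was 58.9%.

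In the list as a whole the peaks stood somewhat late. Their median place was 59.8% (56.9 to 62.6%), against 24.6% for the 41 shared near-gene intergenic peaks, 77.6% for 455 distal intergenic ones, 35.7% for 3129 at gene ends and 63.4% for 2166 inside genes. The first 10% of the list held 80 of them (7.10%), and the last 10% held 162 (14.4%). The shares in the first 10% were 14.6% for shared near-gene intergenic peaks (6 of 41), 0.440% for distal, 14.5% for gene-end and 4.76% for inside-gene peaks. An overlap with β-catenin was seen at 41 of 1168 near-gene intergenic Pygo2 peaks (3.51%, 2.60 to 4.73%). The Pygo2-only peaks of all classes (1127, 455, 3129 and 2166) made up most of the 7150 in the list. A low overlap was thus a trait of the whole list and not particular to this class.

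Intergenic here means outside protein-coding genes. A noncoding gene of any kind lay within 1 kb of 381 peaks (33.8%, 31.1 to 36.6%), and 268 (23.8%) were centred inside such a gene. Counted by genes, 418 of 28056 noncoding genes (1.49%) had such a peak within 1 kb. An lncRNA gene was within 1 kb of 313 peaks (27.8%), a transfer RNA (tRNA) gene of 46, a small nuclear RNA (snRNA) gene of 20, a small nucleolar RNA gene of 5, a microRNA gene of 4 and the Y RNA gene Rny3 of 1. For lncRNA genes the share was 29.3% for shared near-gene intergenic peaks, 27.7% for distal, 13.8% for gene-end and 10.3% for inside-gene peaks. Centres inside an lncRNA gene made up 22.0% here, 22.0% of shared, 24.2% of distal, 8.05% of gene-end and 7.85% of inside-gene peaks. A nearby lncRNA gene was thus shared with the other intergenic classes and not particular to this one.

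Transfer RNA genes, which are transcribed by RNA polymerase III from promoters inside the gene, were within 1 kb of 4.08% of the peaks (3.07 to 5.40%). The share was 7.32% for the shared near-gene intergenic peaks (3 of 41), 0.220% for distal (1 of 455), 0.863% for gene-end (27 of 3129) and 0.0923% for inside-gene peaks (2 of 2166). A count of 72 of 408 tRNA genes (17.6%) had such a peak, against 17 of 1004 snRNA genes (1.69%) and 298 of 12727 lncRNA genes (2.34%). The 72 tRNA genes came from 46 peaks, while the 17 snRNA genes came from 20. A peak amid clustered tRNA genes counts for each of them, which raises the share by genes, also by amino acid. The 46 peaks were centred a median of 115 bp from the tRNA gene, 7 inside it, 35 within 200 bp and the farthest at 851 bp. The tRNA genes served many amino acids: tyrosine led by share with 5 of 10 genes, arginine had 8 of 24, isoleucine 5 of 16 and threonine 5 of 17, while cysteine had 0 of 56. Near-identical tRNA copies can split or lose reads at mapping, and how the authors treated such reads is not given in the sources used here. The earliest tRNA peak stood 311 bp from n-TRcct1 (an arginine tRNA gene, list position 57), and the next 351 bp from n-TYgta7 (tyrosine, position 168).

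Chromosome 13 held 15 of the 46 tRNA peaks, all between 21169892 and 23526599, where 16 of the peaks lay in all. The same stretch carries many replication-dependent histone genes. Of the 5 groups of 4 peaks each spaced at most 10 kb apart, 2 lay there and all 8 of their peaks were at tRNA genes. Another group, on chromosome 3 near Hjv, had 3 of 4 at tRNA or snRNA genes, while the groups at Tex44 and past Bahcc1 had 0.

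The snRNA genes code for the RNA cores of the spliceosome and for 7SK. By genes, 17 of 1004 (1.69%) had a peak within 1 kb, near the 1.49% over all noncoding genes. Those 17 include 4 with an established name, rather than a gene model number. How many snRNA genes have such a name was not counted. Rnu11, the U11 RNA of the minor spliceosome, was 86 bp from its peak. Rnu2-10, a U2 gene, was 173 and 183 bp from a pair of peaks. Rnu5g (a U5 gene) was 82 bp from the peak at position 407, and Rn7sk, the 7SK RNA that restrains the elongation kinase P-TEFb, was 321 bp from the peak at position 409. Peaks with a tRNA or snRNA gene within 1 kb numbered 66 (5.86%) and had a median place of 14.3%, against 62.2% for all other members of the class. They made up 24 of the 80 peaks in the first 10% of the list (30.0%, 21.1 to 40.8%), 15 of 92 between 10 and 20%, 12 of 90 between 20 and 30%, and 0 of 162 in the last 10%. Centres inside lncRNA genes made up 25% at the head of the list (its first 10%) and 19.8% at its foot (the last 10%). The few peaks near other small RNA genes, counted above among all other members, also had early medians. These were 22.6% for small nucleolar RNA genes (5 peaks), 22.9% for microRNA genes (4) and 18.7% for the Y RNA gene (1).

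**Figure D3:**
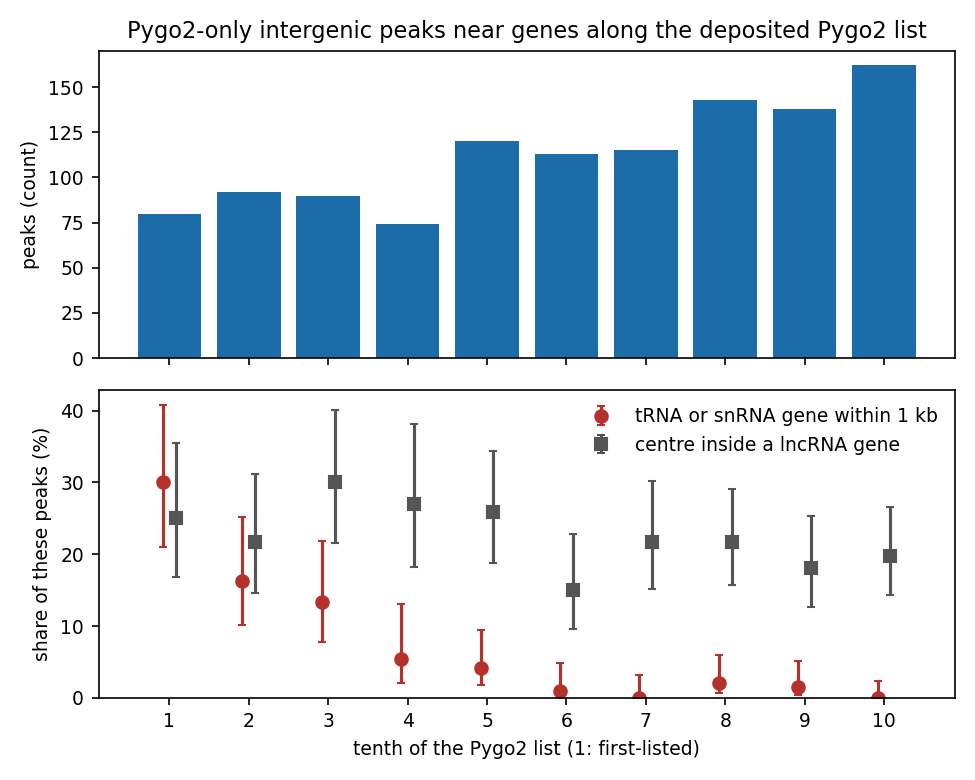
Share of Pygo2-only intergenic peaks near genes (%) by place in the Pygo2 list in steps of 10%, with 95% Wilson intervals, for a tRNA or snRNA gene within 1 kb and for a centre inside an lncRNA gene. The tRNA or snRNA share is 30.0% in the first step and 0% in the last; the lncRNA share stays between 15% and 30.0%.

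A microRNA gene lay within 1 kb of 4 peaks (0.355%), against 0 of 41 shared near-gene intergenic, 0.220% of distal, 0.959% of gene-end and 0.646% of inside-gene peaks. By genes this was 4 of 1228 microRNA genes (0.326%), below the 1.49% over all noncoding genes. The genes were Mir1953 at 121 bp, Mir210 at 379 bp, Mir22 at 628 bp and Mir193a at 892 bp. Mature RNAs of the pair listed earliest, at positions 401 and 474, are given as RefSeq (GRCm38.p6) has them, with the seed (bases 2 to 8) in capitals. miR-210 is known as the hypoxia-induced microRNA. The seeds of this pair differ.
miR-210-3p: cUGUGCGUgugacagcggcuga
miR-22-3p: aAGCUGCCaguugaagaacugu

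Promoter windows of lncRNA genes were touched by 47 peaks (57 windows of 50 genes), 18 of which lay wholly inside a window. Their median place in the list was 24.1%. The windows had a median GC content of 55.3% and 13 CpG, against 64.0% and 24 CpG in 233 lncRNA windows with another Pygo2 peak and 48.3% and 4 CpG in 11298 with no Pygo2 peak. GGGCGG was in 49.1% of the windows with these peaks (36.6 to 61.7%), in 61.4% of those with another Pygo2 peak and in 15.2% of those with none. CCAAT was in 54.4% (41.6 to 66.6%), 36.1% and 35.9% in the same order. CACGTG was in 14.0%, 13.7% and 5.69%, and CCGGAAG (ETS) in 8.77%, 17.2% and 3.59%. The TCF/LEF letters CTTTGAT were in 5.26% (3 of 57), 2.58% and 4.71%, and in 3.73% of all 32851 windows. TATAAA was in 15.8%, 4.72% and 15.7%, TGANTCA (AP-1) in 1.75%, 2.58% and 9.49%, and TGACGTCA (CRE) in 0%, 3.86% and 0.921%. Each motif was sought on both strands. Some genes had overlapping windows, among them 1110038B12Rik, 1600020E01Rik and 2810048H02Rik with CCAAT, so the same sequence can count more than once. The intervals treat the windows as separate and are too narrow to that extent. All-window shares were 35.7% for GGGCGG, 37.4% for CCAAT, 7.15% for CACGTG, 8.86% for CCGGAAG, 13.6% for TATAAA, 7.81% for TGANTCA and 1.79% for TGACGTCA. GC-rich letters move with GC content, and the part of base composition in these shares was not tested.

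**Figure D4:**
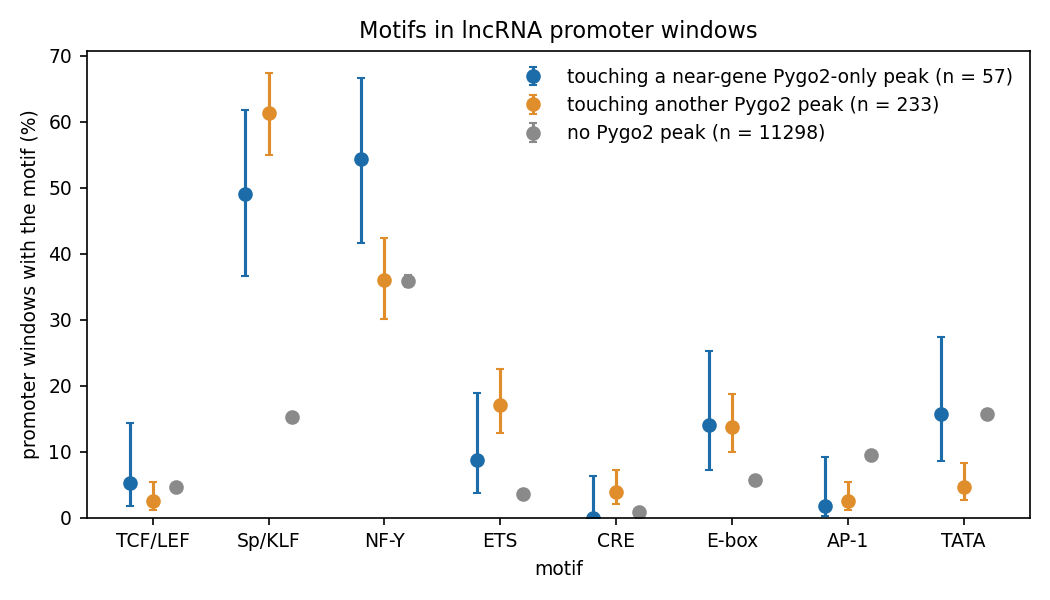
Share of lncRNA promoter windows (%) holding each motif, for windows that touch a Pygo2-only intergenic peak near a gene (57), another Pygo2 peak (233) or no Pygo2 peak (11298), with 95% Wilson intervals. CCAAT is at 54.4%, 36.1% and 35.9%, and the TCF/LEF letters are at 5.26%, 2.58% and 4.71%.

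Most of the peaks stood alone. Another of them lay within 10 kb of 203 (18%, 15.9 to 20.4%), in 78 pairs, 9 triples and 5 groups of 4, and 924 had no such neighbour. The share was 0 of 41 for shared near-gene intergenic peaks, 8.57% for distal, 19.0% for gene-end and 16.2% for inside-gene peaks, each counted among its own class, so that larger classes have more possible neighbours.

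Although none shared a base with a β-catenin peak, 37 (3.28%, 2.39 to 4.49%) had a β-catenin peak centred within 1 kb, 105 (9.32%) within 10 kb and 257 (22.8%) within 50 kb. Within 1 kb the share was 1.54% for distal, 4.12% (3.48 to 4.88%) for gene-end and 1.71% for inside-gene Pygo2-only peaks. The gene-end interval overlapped that of the near-gene intergenic peaks. Within 10 kb the share was 2.86% for distal, 8.37% for gene-end and 5.54% for inside-gene Pygo2-only peaks. Within 50 kb it was 7.47% for distal, 18.2% for gene-end and 15.7% for inside-gene Pygo2-only peaks. Among the closest were peaks at Ptma (177 bp), Haao (179 bp), Id3 (273 bp) and Socs3 (279 bp).

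Gene lists of arch, heart and signalling biology were then read against the peaks. Of all 21887 protein-coding genes, 2212 (10.1%) had such a peak within 50 kb of an end. Across the 15 lists the count was 99 of 435 genes (22.8%). Lists share genes, and a peak may count for several genes. The Id and immediate early list, genes induced quickly by growth factors or BMP, had 10 of 26 (38.5%, 22.4 to 57.5%), and each of the 10 was also the nearest gene of a peak. BMP, FGF, Shh and Notch signalling had 18 of 47 (38.3%; 10 genes within 25 kb and 6 from the first 50% of the peak list), heart development 16 of 50 (32.0%), neural crest 7 of 24 (29.2%), arch patterning 13 of 46 (28.3%) and arch muscle 4 of 16 (25%). Wnt targets had 7 of 30 (23.3%), cell cycle 6 of 26 (23.1%), Wnt components 11 of 51 (21.6%) and chromatin regulators, a list that includes Bahcc1, 9 of 47 (19.1%). Endothelium and blood had 3 of 20 each (15%), neuron 3 of 22 (13.6%), pharyngeal epithelium 2 of 25 (8.00%) and hepatocyte, a cell type of another organ, 0 of 20.

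**Figure D5:**
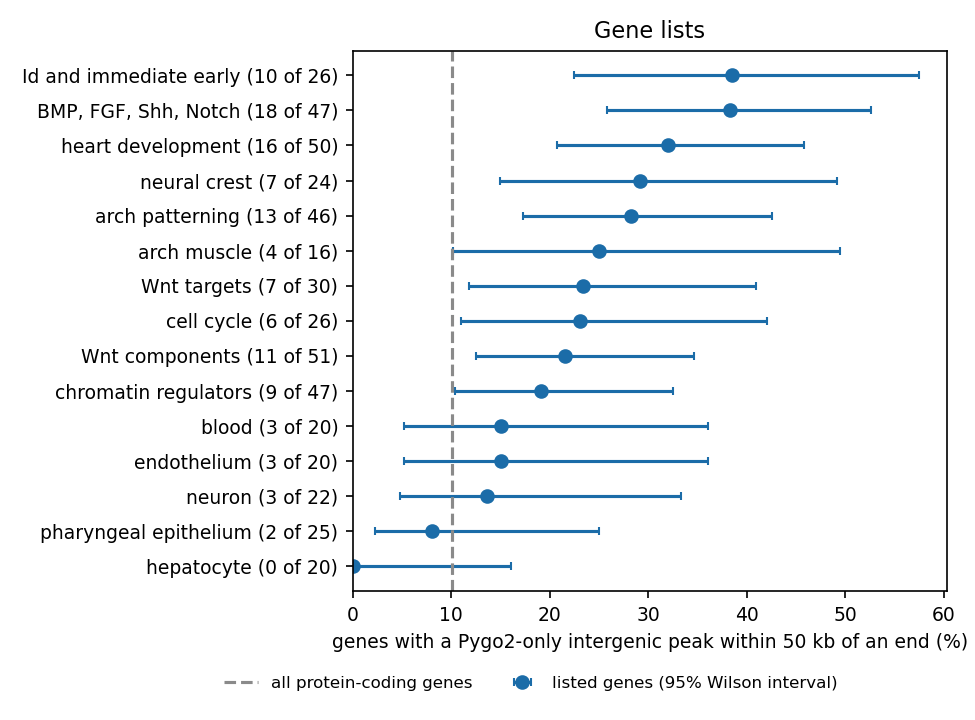
Share of genes of each list with a Pygo2-only intergenic peak within 50 kb of an end (%), points with 95% Wilson intervals, and the share over all protein-coding genes (dashed line, 10.1%). The Id and immediate early list is at 38.5% and the hepatocyte list at 0%.

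The median intergenic room within 50 kb on each side was 99.8 kb for heart, 73.1 kb for Id and immediate early and 66.9 kb for signalling genes, and 37.8 kb over all genes. Over all genes the share with a peak was 9.59% at 0 to 10 kb, 11.1% at 10 to 25 kb, 10.8% at 25 to 50 kb, 11.5% at 50 to 75 kb and 7.52% at 75 to 100 kb of room. The part of room in the lists' shares was not tested. Any Pygo2 peak within 50 kb was found for 45.8% of all genes, for 57.7% of the Id and immediate early genes and for 70.2% of the signalling genes. The highest shares were those of chromatin regulators (76.6%) and cell cycle (73.1%), and neural crest (41.7%) and Wnt components (45.1%) were just below that of all genes. The lowest was the hepatocyte list at 25%.

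The 11 peaks nearest to Id and immediate early genes had a median place of 14.6%, against 59.8% for all 1127, and 10 of them stood in the first 50% of the list. By the nearest gene their positions were Id3 at 15, Junb at 302, Ier2 at 349 and 875, Fosb at 862, Fos at 1046, Id1 at 1290, Btg2 at 1686, Jund at 1817, Myc at 3361 and Ier5 at 5766. Junb, Fos, Fosb and Jund encode AP-1 subunits, and Btg2 restrains cell proliferation. Distances ran from 1.240 kb at Junb to 13.828 kb at Btg2. The Myc peak lay 1.645 kb from the gene. An early place was not particular to this list. Peaks nearest to chromatin regulators had a median place of 19.9% (11 peaks, 7 of them at Bahcc1). The median was 28.5% for cell cycle (3 peaks) and 42.8% for arch patterning (10 peaks). In the other lists with such peaks it ran from 55.7% (Wnt targets, 4 peaks) to 93.6% (blood, 1 peak).

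Among the 10 signalling genes listed earliest, the inhibitors were Sufu (Hedgehog, peak at 11.464 kb), Smad7 (BMP and TGF-β, 9.707 kb) and Spry2 (FGF receptor signalling, 2.142 kb). The ligands were Jag2 (Notch, 20.585 kb), Bmp4 (46.091 kb), Bmp7 (42.707 kb) and Fgf15 (40.550 kb). The receptor Notch1 had its peak at 3.727 kb, Smo, the Hedgehog signal transducer, at 1.055 kb, and the FGF-responsive factor Etv4 at 29.648 kb. The peaks given for Sufu, Jag2 and Fgf15 were nearer to other genes (Trim8, Brf1 and Ccnd1). The Fgf15 peak is the Ccnd1 peak at position 535. The 14 peaks nearest to genes of the signalling list had a median place of 79.5%. Of the genes named, Sufu was earliest in the list at position 498.

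Heart and arch factors included Tbx2, a T-box repressor of chamber genes, with 3 peaks at 1.643 kb and beyond, the earliest at position 359. Hand2, which patterns the ventral arch, had a peak 29.311 kb away, Prrx2 a peak at 4.697 kb and Foxc2 a peak at 6.821 kb. Dlx3, a ventral arch homeobox gene, had 3 at 1.312 kb and beyond, and Meis2, a Hox cofactor, had 2, the nearest at 1.099 kb. In neural crest, Sox10 had a peak at 1.971 kb, Pax3 at 4.671 kb and Snai1 at 9.367 kb. The peaks given for Prrx2, Foxc2 and Sox10 were nearer to other genes (Ptges, Foxl1 and Polr2f).

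Peaks near Wnt genes were spread over the list, and the 11 nearest to Wnt components had a median place of 72.4%. Targets with a peak were Ccnd1 (cyclin D1, 1.672 kb, position 535), Myc, Sp8, Lgr5, Sox9, Apcdd1 and Nkd1, the last 5 of them at positions 4605 to 6903. For Lgr5, Apcdd1 and Nkd1 another gene was nearer to the peak. Components included Wnt10a (4.117 kb) and Wnt6 (22.971 kb), which share a peak at position 812. Bcl9l, the adaptor between Pygo proteins and β-catenin, had a peak at 4.074 kb (position 1007). The Pygo2 gene itself was 35.077 kb from a peak at position 1298. That peak was nearest to Zbtb7b (1.364 kb) and centred inside the lncRNA gene Gm15417. Among chromatin genes, the Polycomb gene Cbx2 was within 50 kb of 2 peaks and Cbx8 of 1, and the acetyltransferase gene Ep300 had a peak at 1.061 kb.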

How the data were processed

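Peaks were called by the authors with HOMER findPeaks in factor style on 1 library per list, with an IgG BA1 control, per the file headers (the names of the deposited lists mention IgG with BA2). The headers give a false discovery rate of 0.001, at least 10 tags for Pygo2 and 11 for β-catenin, at least 2-fold over IgG and over the surrounding region, and Poisson p-values of 0.0001 or less. Bowtie and Bowtie2 are also named, with HOMER and mm10, in the submitters' processing notes. The deposited score has the same value at every peak and was not used as a strength.

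Python 3.11.15 with NumPy 2.4.6, pandas 2.3.3, SciPy 1.17.1 and Matplotlib 3.10.9 was used. Peaks were classed by a 1 bp overlap with β-catenin peaks and by distance from the centre to RefSeq genes (GRCm38.p6), and the classing was tested on simulated data. Shares have 95% Wilson intervals, for counting error only; with 1 library behind each list used no test was made. The region choice and the gene lists were made with earlier results of these data known. Genes named were the nearest of the 20 first-listed peaks, the 10 with most peaks, up to 10 per list by list position, those at the limits, and noncoding genes that hold early-listed peaks; noncoding genes named only as near a peak, the genes with the closest β-catenin peaks and the printed stretches were chosen after their values were seen. Promoters on chromosome 18 were not used here. The planned motif search in whole peaks was not made, as no genome sequence was used here. Other settings (overlap rule, distance limits, gene kinds, list part) are in the closing section. The remaining libraries were not used here, and some genes that the naming rule covers are not reported here.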

Additional observations from a re-analysis of the deposited data

How the results depend on the processing

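The number of peaks (1127) stayed within 1.5 times under other overlap rules, limits and gene kinds, at 878 to 1288. It was 456 in the first 50% of the list, a setting that keeps fewer peaks by construction. The median place (59.8%) was 59.3 to 61.1% under the other overlap rules and 60.4% when each peak took the middle of its run, a setting chosen after seeing the data. Listed genes with a peak numbered 99, 66 by nearest gene, 70 within 25 kb and 50 from the first 50% of the list. Of the 15 single lists, 8, 12 and 4 kept a count within 1.5 times under these 3 settings. The share with a noncoding gene within 1 kb (33.8%) was 23.8% for a centre inside the gene and 42.9% within 5 kb. The share with a neighbour within 10 kb (18%) was 11.4% within 5 kb and 25.5% within 20 kb. No paired analysis was possible because each peak list used came from 1 library, and for the same reason no replicate could be left out. The motif search in other windows around peak centres was not run. A place with fewer than 11 tags in the β-catenin library is not in its list, so a β-catenin signal below that cannot be seen here.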
